A study of Mus musculus with 9 samples.

Results

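The 10 genes described here encode proteins of the cochlear lateral wall, the spiral limbus, the tectorial membrane and the hair cells, structures that surround the auditory nerve but are not part of it. They were Otos, Coch, Slc26a4, Otoa, Otog, Tecta, Tectb, Myo7a, Otof and Slc26a5. Members were chosen by name as every probe set annotated to exactly 1 gene of this group. Each of the 10 genes had 1 such probe set, so they made up 10 of the 45101 probe sets on the array and 10 of the 18193 genes tested. RNA came from CBA/CaJ mice of both sexes, 8 to 12 weeks old, in 3 groups of 3 arrays. The tissue group was untreated auditory nerve removed from the temporal bones. The study's methods describe a dissection that strips the bony shell, the lateral wall and most of the sensory epithelium for its ouabain-treated and postnatal mice, and the labels of the arrays used here do not say how much of these was left on the nerve. The cultured cells were nerve that had been dissociated with 0.25% trypsin and DNase I and then grown for 5 to 7 days to confluency in medium with 10% serum. The neurospheres, floating clusters of cells, were made from such cultures during 12 further days without serum, in medium with EGF at 20 ng/ml, FGF at 10 ng/ml and heparin at 2 µg/ml. Nothing in the labels tells if arrays of a group stem from different mice or dishes. The p-values therefore reflect how much these arrays vary, which may be no more than technical variation.

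The lateral wall of the cochlea consists of the spiral ligament, whose fibrocytes recycle potassium, and the stria vascularis, an epithelium that secretes the potassium-rich endolymph. On the side of the nerve lies the spiral limbus, which rests on the osseous spiral lamina through which the nerve fibres reach the hair cells. Interdental cells of the limbus anchor the tectorial membrane, a gel of collagens, tectorins and otogelin that overlies the hair cells. Inner hair cells release transmitter onto the spiral ganglion neurons, and outer hair cells amplify sound by changing their length.

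The sequences before the start sites of Otos, Slc26a4 and Coch are shown because Otos and Slc26a4 had the largest differences between tissue and cultures of the 10 genes, while Coch, secreted by the same fibrocytes as Otos, kept a high signal in culture. They are the 250 bases upstream of the listed start site (mouse build GRCm38.p6), 5′ to 3′ on the strand of the gene. These start sites lie inside the gene spans in RefSeq, so the last bases of each window overlap its gene. The span ends at 92648899 for Otos and at 31560055 for Slc26a4, and starts at 51593283 for Coch. Capitals mark the TATA box TATAAA, the GC box, which is GGGCGG, and the E-box with the letters CAGCTG, each on either strand.
Otos, chr1:92648842-92649091, minus strand: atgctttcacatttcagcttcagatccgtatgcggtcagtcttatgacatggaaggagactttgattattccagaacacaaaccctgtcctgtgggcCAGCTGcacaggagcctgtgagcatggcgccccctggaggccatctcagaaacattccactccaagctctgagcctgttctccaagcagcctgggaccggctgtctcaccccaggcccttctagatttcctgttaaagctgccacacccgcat
Slc26a4, chr12:31559985-31560234, minus strand: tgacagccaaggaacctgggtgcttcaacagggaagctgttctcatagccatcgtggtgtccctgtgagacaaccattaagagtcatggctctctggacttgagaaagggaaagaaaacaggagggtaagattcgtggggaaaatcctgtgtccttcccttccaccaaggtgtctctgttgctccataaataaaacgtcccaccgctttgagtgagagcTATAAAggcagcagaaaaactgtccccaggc
Coch, chr12:51593091-51593340, plus strand: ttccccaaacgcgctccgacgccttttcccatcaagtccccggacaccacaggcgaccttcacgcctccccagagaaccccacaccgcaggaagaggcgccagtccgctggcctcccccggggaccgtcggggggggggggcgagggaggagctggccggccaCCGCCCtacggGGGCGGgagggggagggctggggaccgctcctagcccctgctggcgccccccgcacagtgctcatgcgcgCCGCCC
The sequence before Coch held 24 CpG dinucleotides at a GC content of 74.8%, against 5 at 54.0% before Otos and 4 at 49.6% before Slc26a4. Over all 32851 promoters of the table the median was 6 CpG and 52.4% GC, and 88.0% of them held fewer CpG than Coch. The GC box occurred 3 times in the window of Coch, the last time inside the gene span, and in 32.7% of all promoters. The TATA box occurred once in the window of Slc26a4, inside the gene span, and in 12.4% of all promoters. The E-box occurred once before Otos and in 13.0%. Promoters were listed for 9 of the 10 genes (11 in all), without Otof. These matches describe the letters of this window and nothing about binding.

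Signals are RMA values on the log2 scale, so a difference of 1 is a doubling. The median signal of an array lay between 6.15 and 6.27. As a gauge, the 80 probe sets of odorant and pheromone receptors of the nose ranged from 2.64 (5th percentile) to 5.48 (95th percentile) over the 9 arrays. Probe sets differ in their own background, so this range is no detection limit. The labelled tissue carried the markers of nerve. The 10 genes of spiral ganglion neurons averaged 11.77 to 11.93 on the tissue arrays and 5.78 to 6.11 on the 6 arrays of cultures, and the 7 measured genes of Schwann cells and myelin averaged 11.72 to 11.81 against 7.71 to 8.08. The 3′ signal of the actin controls exceeded their 5′ signal in tissue by 2.71 ± 0.35, against 0.36 ± 0.036 for cultured cells and 0.70 ± 0.15 for neurospheres (mean log2 ± SD, n = 3). This gap, which can reflect RNA integrity, thus went along with each contrast of tissue and culture given here, and its part in them was not tested. In bulk samples like these, fewer cells of a type and less RNA per cell cannot be told apart.

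The first comparison asked which of these genes had more signal in the dissected nerve than in the cells grown from it. Of the 10 genes, 8 were lower in cultured cells than in tissue and 0 were higher, with none higher at an unadjusted p under 0.05 in either culture (limma, p under 0.05 after Benjamini-Hochberg adjustment across the 18193 genes, with more than 1.5-fold change), against 22.0% of all genes called lower, 20.4% called higher and 42.4% called in either direction. The median difference of the 10 genes was -2.87 (log2), against -0.0091 for all genes. For 9 of the 10 genes all cultured cell arrays lay below all tissue arrays, as did 34.8% of all genes, while 33.8% lay above without overlap. In neurospheres 8 of the 10 were lower than in tissue and 0 were higher, against 21.0% and 21.7% of all genes (42.7% in either direction), with a median of -3.27 against 0.047. There too 9 genes were lower without overlap, against 31.4% of all genes lower and 36.7% higher. Both comparisons use the same 3 tissue arrays and are therefore not independent. The 10 genes were chosen with earlier results of these data known, so their counts are no independent evidence. Between neurospheres and cultured cells 2 genes were lower and 1 was higher, against 8.91% and 9.0% of all genes (17.9% in either direction), with a median of 0.016 against 0.051. These 3 genes were also those without overlap, against 20.6% of all genes lower and 27.8% higher.

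**Figure D1:**
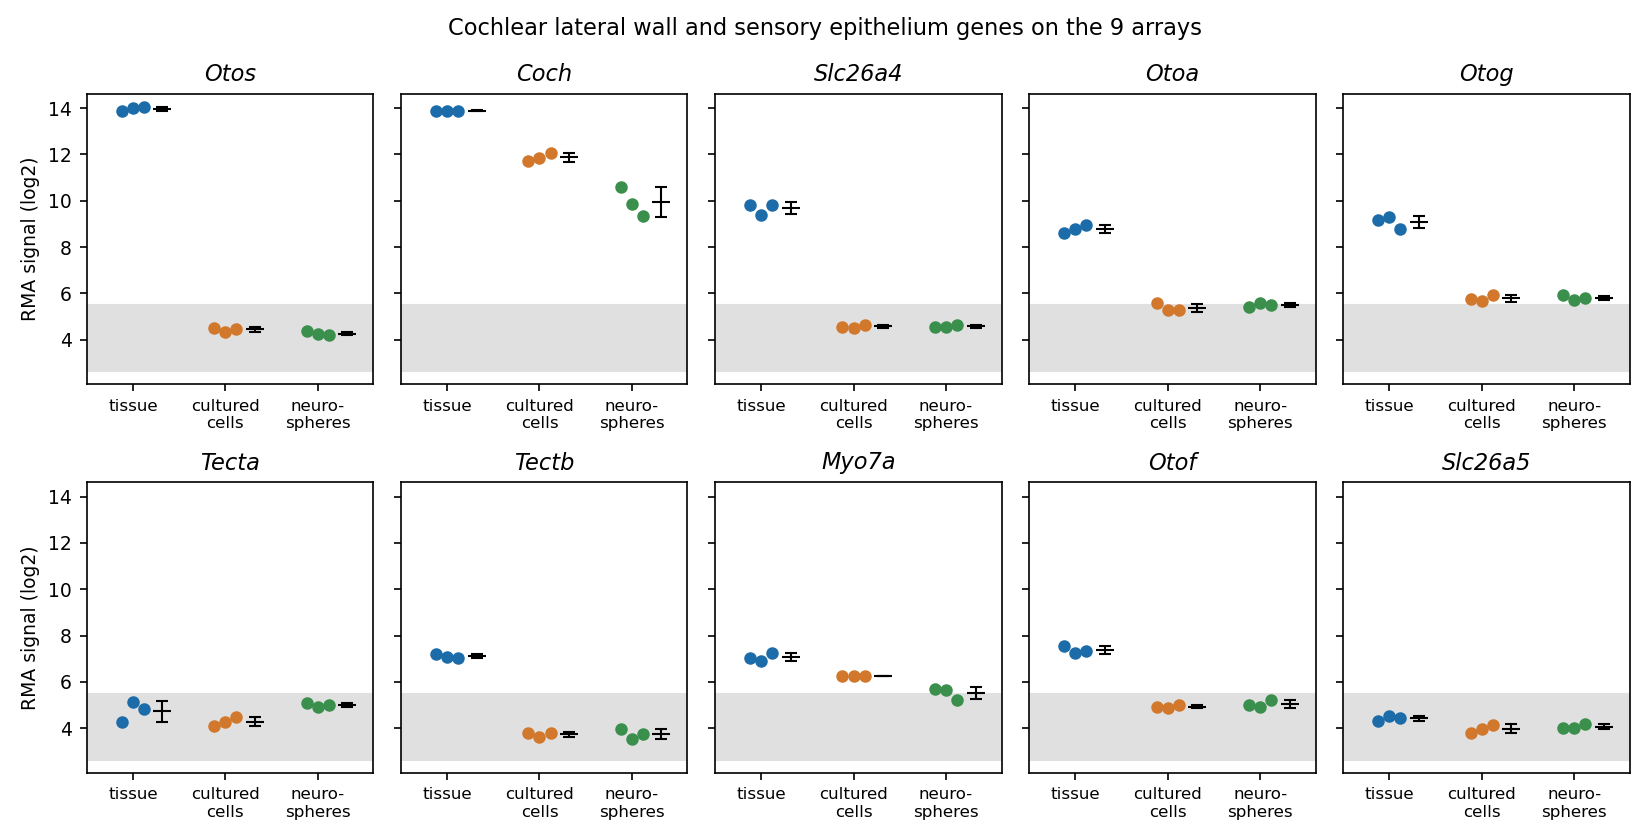
RMA signal (y axis, log2) of the 10 genes on the 3 arrays of each group, with a point for each array and a black bar for the mean ± SD; the grey band runs from 2.64 to 5.48, the 5th to 95th percentile of the nose receptor probe sets. Otos dropped from above 13.8 in tissue into the band in both cultures, Coch stayed above the band in every group, and Tecta and Slc26a5 lay within it in every group.

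The secreted proteins of fibrocytes, Otos and Coch, parted in culture. Otos encodes otospiralin, a small protein made by fibrocytes of the spiral ligament and limbus. It was at 13.88, 13.99 and 14.05 in tissue, at 4.52, 4.33 and 4.46 in cultured cells, and at 4.35, 4.23 and 4.20 in neurospheres. All tissue values lay far above all culture values, which fell in the range of the nose receptors. The log2 difference from tissue was -9.54 in cultured cells (SE 0.090, limma adjusted p = 3.2e-11) and -9.72 in neurospheres (SE 0.091, adjusted p = 2.01e-10). Neurospheres and cultured cells overlapped, with a difference of -0.18 (95% interval -0.38 to 0.025, limma adjusted p = 0.163).

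Coch encodes cochlin, an abundant matrix protein of the same fibrocytes. It was at 13.87, 13.90 and 13.89 in tissue, at 11.70, 11.86 and 12.07 in cultured cells, and at 10.60, 9.87 and 9.33 in neurospheres. The 3 groups followed each other without overlap, and no array came near the range of the nose receptors. The log2 difference was -2.01 (SE 0.10, 4.03-fold, limma adjusted p = 1.04e-07) for cultured cells against tissue, and -1.94 (SE 0.28, 3.85-fold, adjusted p = 0.000964) for neurospheres against cultured cells. Neurospheres differed from tissue by -3.96 (SE 0.27, 15.5-fold, limma adjusted p = 2.18e-06). The neurosphere arrays differed more among themselves (SD 0.64) than those of cultured cells (SD 0.19) or tissue (SD 0.015). The tissue signals of Otos and Coch were close to the highest signal on each tissue array, 14.42 to 14.48.

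Slc26a4 encodes pendrin, an anion exchanger of epithelial cells in the outer sulcus and spiral prominence of the lateral wall. It was at 9.81, 9.36 and 9.83 in tissue, at 4.55, 4.51 and 4.64 in cultured cells, and at 4.53, 4.55 and 4.64 in neurospheres. The culture values lay within the nose receptor range and overlapped with each other. The log2 difference from tissue was -5.10 (SE 0.13, 34.4-fold, limma adjusted p = 9.69e-10) in cultured cells and -5.10 (SE 0.13, adjusted p = 7.3e-09) in neurospheres. Neurospheres differed from cultured cells by 0.0053 (95% interval -0.18 to 0.19, limma adjusted p = 0.969). Where a culture value lies in that range, the size of a fold change depends on the background of the probe set.

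The genes of the limbus and the tectorial membrane gave 3 clear differences and 1 signal that stayed low. Otoa encodes otoancorin, which attaches the tectorial membrane to the interdental cells. It was at 8.59, 8.76 and 8.94 in tissue, at 5.57, 5.29 and 5.26 in cultured cells, and at 5.43, 5.58 and 5.49 in neurospheres. Otog, the gene of otogelin, was at 9.15, 9.28 and 8.78 in tissue, at 5.76, 5.65 and 5.95 in cultured cells, and at 5.91, 5.70 and 5.78 in neurospheres. For both genes tissue stood apart and the cultures overlapped. Otoa had a log2 difference of -3.38 (SE 0.12, 10.4-fold, limma adjusted p = 7.79e-09) in cultured cells and -3.26 (SE 0.11, adjusted p = 2.7e-08) in neurospheres. Otog had -3.29 (SE 0.14, 9.76-fold, limma adjusted p = 2.31e-08) and -3.28 (SE 0.14, adjusted p = 9.74e-08).

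Tectb and Tecta encode β- and α-tectorin, non-collagenous proteins of the tectorial membrane. Tectb was at 7.19, 7.07 and 7.04 in tissue, at 3.77, 3.60 and 3.80 in cultured cells, and at 3.94, 3.53 and 3.76 in neurospheres. Tissue stood above both cultures, by a log2 difference of -3.38 (SE 0.091, 10.4-fold, limma adjusted p = 1.34e-09) for cultured cells and -3.36 (SE 0.12, adjusted p = 3.56e-08) for neurospheres. Tecta was at 4.24, 5.12 and 4.81 in tissue, at 4.10, 4.25 and 4.50 in cultured cells, and at 5.10, 4.91 and 5.00 in neurospheres. All of these Tecta values lay in the nose receptor range, and tissue overlapped with both cultures. Tecta differed from tissue by -0.44 in cultured cells (95% interval -0.90 to 0.015, limma adjusted p = 0.0837) and by 0.28 in neurospheres (95% interval -0.17 to 0.73, adjusted p = 0.254). Without tissue array 1, the lowest of its group, the difference in cultured cells was -0.68 (limma adjusted p = 0.00303) and was called. Neurospheres were above cultured cells in Tecta by 0.72 (SE 0.12, 1.65-fold, limma adjusted p = 0.00163), the opposite direction to Coch and Myo7a.

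Of the 3 hair cell genes, Otof showed the largest difference between tissue and the cultures. It encodes otoferlin, the calcium sensor of transmitter release at the ribbon synapse of inner hair cells. It was at 7.56, 7.25 and 7.34 in tissue, at 4.89, 4.87 and 5.02 in cultured cells, and at 5.01, 4.89 and 5.22 in neurospheres. Tissue stood above both cultures, by a log2 difference of -2.46 (SE 0.10, 5.49-fold, limma adjusted p = 2.37e-08) for cultured cells and -2.34 (SE 0.12, adjusted p = 4e-07) for neurospheres.

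Myo7a encodes myosin VIIa, a motor protein of the hair bundle. It was at 7.05, 6.90 and 7.25 in tissue, at 6.25, 6.24 and 6.24 in cultured cells, and at 5.67, 5.64 and 5.22 in neurospheres. The 3 groups followed each other without overlap, as for Coch. The log2 difference was -0.82 (SE 0.10, 1.77-fold, limma adjusted p = 5.61e-05) for cultured cells against tissue, and -0.73 (SE 0.12, 1.66-fold, adjusted p = 0.00225) for neurospheres against cultured cells. Neurospheres differed from tissue by -1.55 (SE 0.14, 2.94-fold, limma adjusted p = 1.68e-05). After quantile normalization the difference between cultured cells and tissue was -0.52, below the fold threshold.

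Slc26a5 encodes prestin, the motor protein of outer hair cells and a relative of pendrin. It was at 4.31, 4.53 and 4.45 in tissue, at 3.79, 3.98 and 4.15 in cultured cells, and at 3.98, 3.99 and 4.17 in neurospheres. Tissue was the highest group without overlap, but every value lay in the nose receptor range. The differences from tissue, -0.45 in cultured cells (SE 0.11, limma adjusted p = 0.00514) and -0.38 in neurospheres (SE 0.099, adjusted p = 0.00885), had a fold change of 1.37 and 1.30, below the threshold of 1.5. Between neurospheres and cultured cells none of Slc26a5, Otoa, Otog, Tectb and Otof was called. Their differences were 0.0096 to 0.12 (log2), with 95% intervals inside -0.25 to 0.36.

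**Figure D2:**
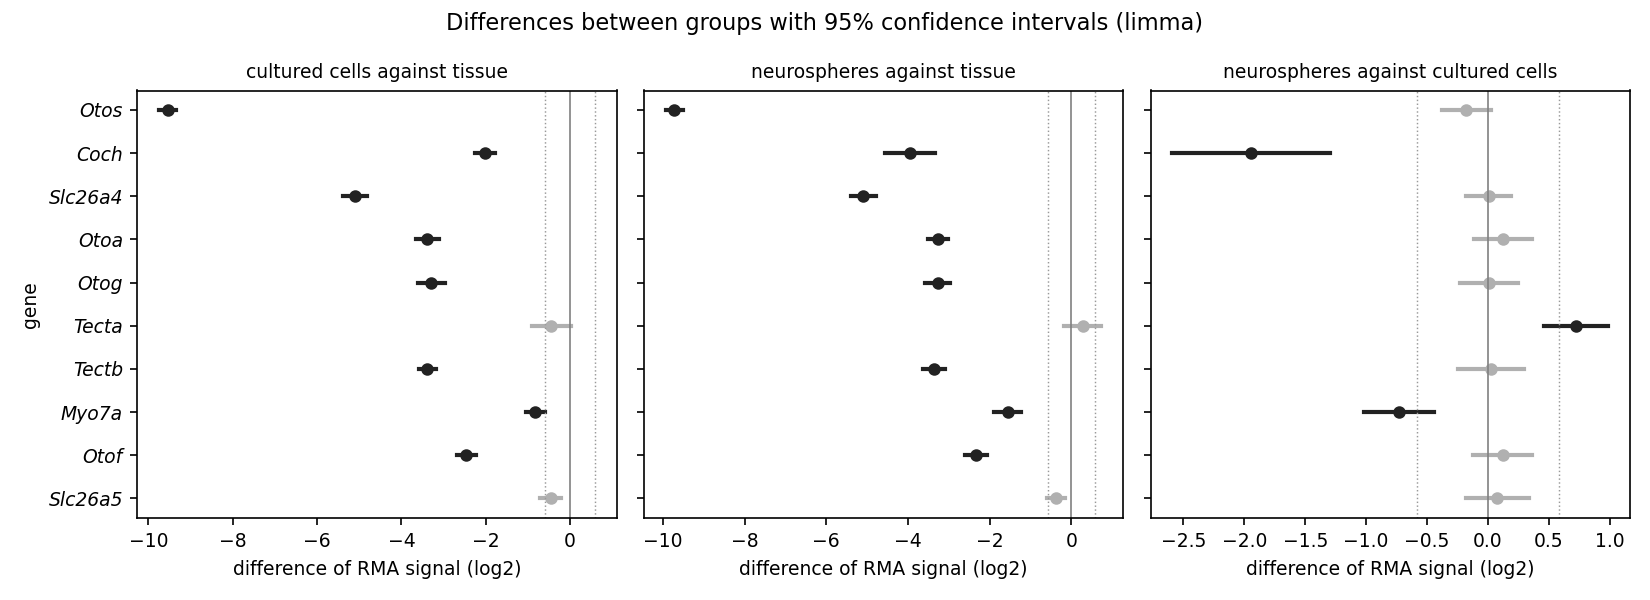
Difference of mean RMA signal (x axis, log2, with its own range in each panel) for the 10 genes in the 3 comparisons; points are limma estimates, lines are 95% intervals, dotted lines mark a fold change of 1.5, and grey marks genes that were not called. Between neurospheres and cultured cells Coch (-1.94), Myo7a (-0.73) and Tecta (0.72) were called, and the other 7 intervals contained 0.

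The order of groups took 3 forms among the called genes. For Otos, Slc26a4, Otoa, Otog, Tectb and Otof tissue was highest and the cultures did not differ beyond their spread. All culture values of Otos, Slc26a4, Tectb and Otof lay within the nose receptor range, where a difference between the cultures may not show. Coch and Myo7a went down from tissue to cultured cells to neurospheres, each step larger than the spread. For Tecta neurospheres exceeded cultured cells, and the difference of either from tissue was within the spread.

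Genes with the most similar course over the 9 arrays were sought by the root mean square difference (log2) after each gene was centred on its own mean, for the 8 members whose group means spanned over 1 (log2). The nearest to Otos were Nefh, the heavy neurofilament subunit (0.35), Cadps, which primes secretory vesicles (0.77), and Chgb, chromogranin B (0.78). Those nearest to Slc26a4 were Mobp, a myelin protein of oligodendrocytes (0.13), Mapk8ip2 (0.14) and Cpne4 (0.15). The neighbours of Otos thus lay farther from it than those of Slc26a4. This distance is not scaled to the span of a gene's group means, which was 9.72 for Otos and 5.10 for Slc26a4. Pearson correlations over the 9 arrays were 0.9983 to 0.9995 for the neighbours of Otos and 0.9981 to 0.9988 for those of Slc26a4. The nearest to Otoa were Ocln, the tight junction protein occludin (0.084), Nfasc, an adhesion protein of axons and glia (0.10), and Rasgef1a (0.13). The nearest to Otog were Slc15a5 (0.11), Rell2 (0.12) and Fam78a (0.13), and to Tectb Rap1gap (0.10), Kif21a, a kinesin (0.10), and Trim9 (0.11). Otof was closest to Gnaz, a G protein subunit (0.10), H2-Aa, an MHC class II chain (0.10), and Trdn, triadin (0.10). Coch was nearest to Sytl2 (0.28), Nebl (0.30) and Id4, an inhibitor of basic helix-loop-helix factors (0.34). Myo7a was nearest to Gab1, an adaptor of growth factor receptors (0.11), Gdpd5 (0.12) and Ak3, an adenylate kinase (0.13).

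Further markers of the same structures were counted from 4 lists of textbook genes, of which 43 genes outside the 10 had a probe set of their own. These lists were chosen with earlier results of these data known, so their counts are no independent evidence. In cultured cells 25 of the 43 were lower than in tissue, 4 were higher and 14 were not called, against 22.0% of all genes lower and 20.4% higher (median -0.86, against -0.0091 for all genes). In neurospheres 27 were lower than in tissue, 3 were higher and 13 were not called, against 21.0% and 21.7% of all genes (median -1.24, against 0.047). Between neurospheres and cultured cells 4 were lower and 4 were higher (median -0.036, against 0.051), which is close to the 8.91% and 9.0% of all genes and so no result about these markers. The counts of each single list below stand against the same shares of all genes.

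Of 8 genes of lateral wall fibrocytes and the limbus, 4 were lower and 3 higher in cultured cells than in tissue (median -0.70). Gjb6 and Gjb2 encode the gap junction proteins through which fibrocytes and supporting cells pass potassium. Gjb6 was at 12.96 ± 0.24 in tissue, 6.36 ± 0.39 in the cultured cells and 5.69 ± 0.50 in neurospheres (mean ± SD, n = 3), a log2 difference of -6.60 (SE 0.19, limma adjusted p = 2.1e-09) for cultured cells. Gjb2 was at 12.35 ± 0.11, 8.20 ± 0.48 and 7.88 ± 0.86 in the same order (-4.15, SE 0.20, limma adjusted p = 7.28e-08). The transcription factor genes of otic mesenchyme, Pou3f4 and Tbx18, moved the other way. Pou3f4 was at 9.63 ± 0.13 in tissue, 11.50 ± 0.13 in the cultured cells and 10.94 ± 0.056 in neurospheres (mean ± SD, n = 3), and Tbx18 at 10.36 ± 0.11, 12.09 ± 0.13 and 11.86 ± 0.11. Both were higher in cultured cells than in tissue, by 1.87 (limma adjusted p = 1.63e-07) and 1.73 (adjusted p = 2.22e-07). Aqp1, a water channel, was higher by 2.11 in cultured cells than in tissue (limma adjusted p = 1.17e-07) and by 2.12 in neurospheres than in cultured cells (adjusted p = 7.33e-05).

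Otor, which encodes the fibrocyte protein otoraplin, is named here after its values were seen. It was at 12.48 to 12.66 in tissue, 12.53 to 12.69 in the cultured cells and 9.96 to 10.38 in neurospheres. Cultured cells differed from tissue by 0.054 (SE 0.088, limma adjusted p = 0.621), and neurospheres were below cultured cells by a log2 difference of -2.40 (SE 0.12, adjusted p = 3.8e-06). Otor and Coch were thus both lower in neurospheres than in cultured cells. In the same comparison Gjb6 differed by -0.67 (SE 0.27, limma adjusted p = 0.0894) and Gjb2 by -0.32 (SE 0.41, adjusted p = 0.597). Neither was called, though both differences had the same direction. Otos was not called either, and its cultured cell values already lay within the nose receptor range. Of 7 general fibroblast genes, 4 were higher and 1 was lower in cultured cells than in tissue (median 0.9985), and 6 were higher in neurospheres (median 0.77). Their array means were 10.35 to 10.74 in tissue, 11.70 to 12.08 in the cultured cells and 11.93 to 12.04 in neurospheres, and the part of this in the values of Coch was not tested.

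Of 8 measured genes of the stria vascularis, 5 were lower in cultured cells than in tissue and 0 were higher (median -1.67). The potassium channel gene Kcnj10 differed by -4.83 and the endocytic receptor gene Lrp2 by -3.18, followed by Atp1b2, a sodium pump subunit, at -3.15 and Cldn11, a claudin, at -2.47. Kcnj10 and Atp1b2 are also expressed by glia and Cldn11 by oligodendrocytes, so these genes do not mark the stria alone. The other genes of the list, named after their values were seen, had smaller differences. Kcnq1, the channel that secretes potassium into the endolymph, was at 6.14 ± 0.27 in tissue (mean ± SD, n = 3) and differed by -0.86 in cultured cells (limma adjusted p = 0.00026). Its subunit gene Kcne1 was at 5.45 ± 0.39 in tissue and differed by -0.51 (limma adjusted p = 0.0326), and Bsnd, a chloride channel subunit, was at 6.25 ± 0.18 and differed by -0.087 (adjusted p = 0.512). Esrrb, a nuclear receptor, differed by -0.55 (limma adjusted p = 0.000256, below the fold threshold), so Kcne1, Bsnd and Esrrb were the 3 genes not called.

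Of 9 measured genes of supporting cells and the tectorial membrane, 6 were lower and 1 was higher in cultured cells than in tissue (median -1.50), and 8 were lower in neurospheres (median -2.52). Prox1, a transcription factor of supporting cells, was at 7.56 ± 0.25 in tissue and 3.19 ± 0.13 in cultured cells (mean ± SD, n = 3), and Lgr5, a receptor of the Wnt pathway, differed by -3.03. Epyc, the proteoglycan epiphycan, had a log2 difference of -4.04 (SE 0.12) in cultured cells, and was higher by 1.70 in neurospheres than in cultured cells (limma adjusted p = 0.00112). Col11a2, a collagen of cartilage and of the tectorial membrane, differed by -2.24. The gene that went the other way was Col9a1, another collagen of both, which was higher by 0.89 in cultured cells than in tissue (limma adjusted p = 5.84e-05) and differed by -3.92 between neurospheres and cultured cells (adjusted p = 8.7e-06).

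Of 18 measured hair cell genes, 10 were lower in cultured cells than in tissue and 0 were higher (median -0.60), and 9 were lower in neurospheres (median -0.62). The 10 included Tmc1 and Chrna9, with tissue means of 4.95 and 4.94, which lay within the nose receptor range in every group. They also included Myo6, at 10.37 in tissue and still at 9.65 in cultured cells. Lhfpl5, a subunit of the mechanotransduction complex, was at 8.65 to 8.92 in tissue, 4.51 to 4.93 in the cultured cells and 4.76 to 4.91 in neurospheres (log2 difference of cultured cells -4.07, SE 0.12, limma adjusted p = 2.61e-09). Gfi1, a transcription factor of hair cells and of blood progenitors, differed by -3.15, Pcdh15, a tip link cadherin, by -2.65, and Ush1c, the scaffold protein harmonin, by -2.02. The transcription factor genes that define hair cells, Atoh1 and Pou4f3, were at 3.99 to 4.43 and 3.27 to 3.39 in tissue. These values lay within the nose receptor range, and neither gene was called between cultured cells and tissue (0.23, limma adjusted p = 0.306, and -0.25, adjusted p = 0.0236).

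**Figure D3:**
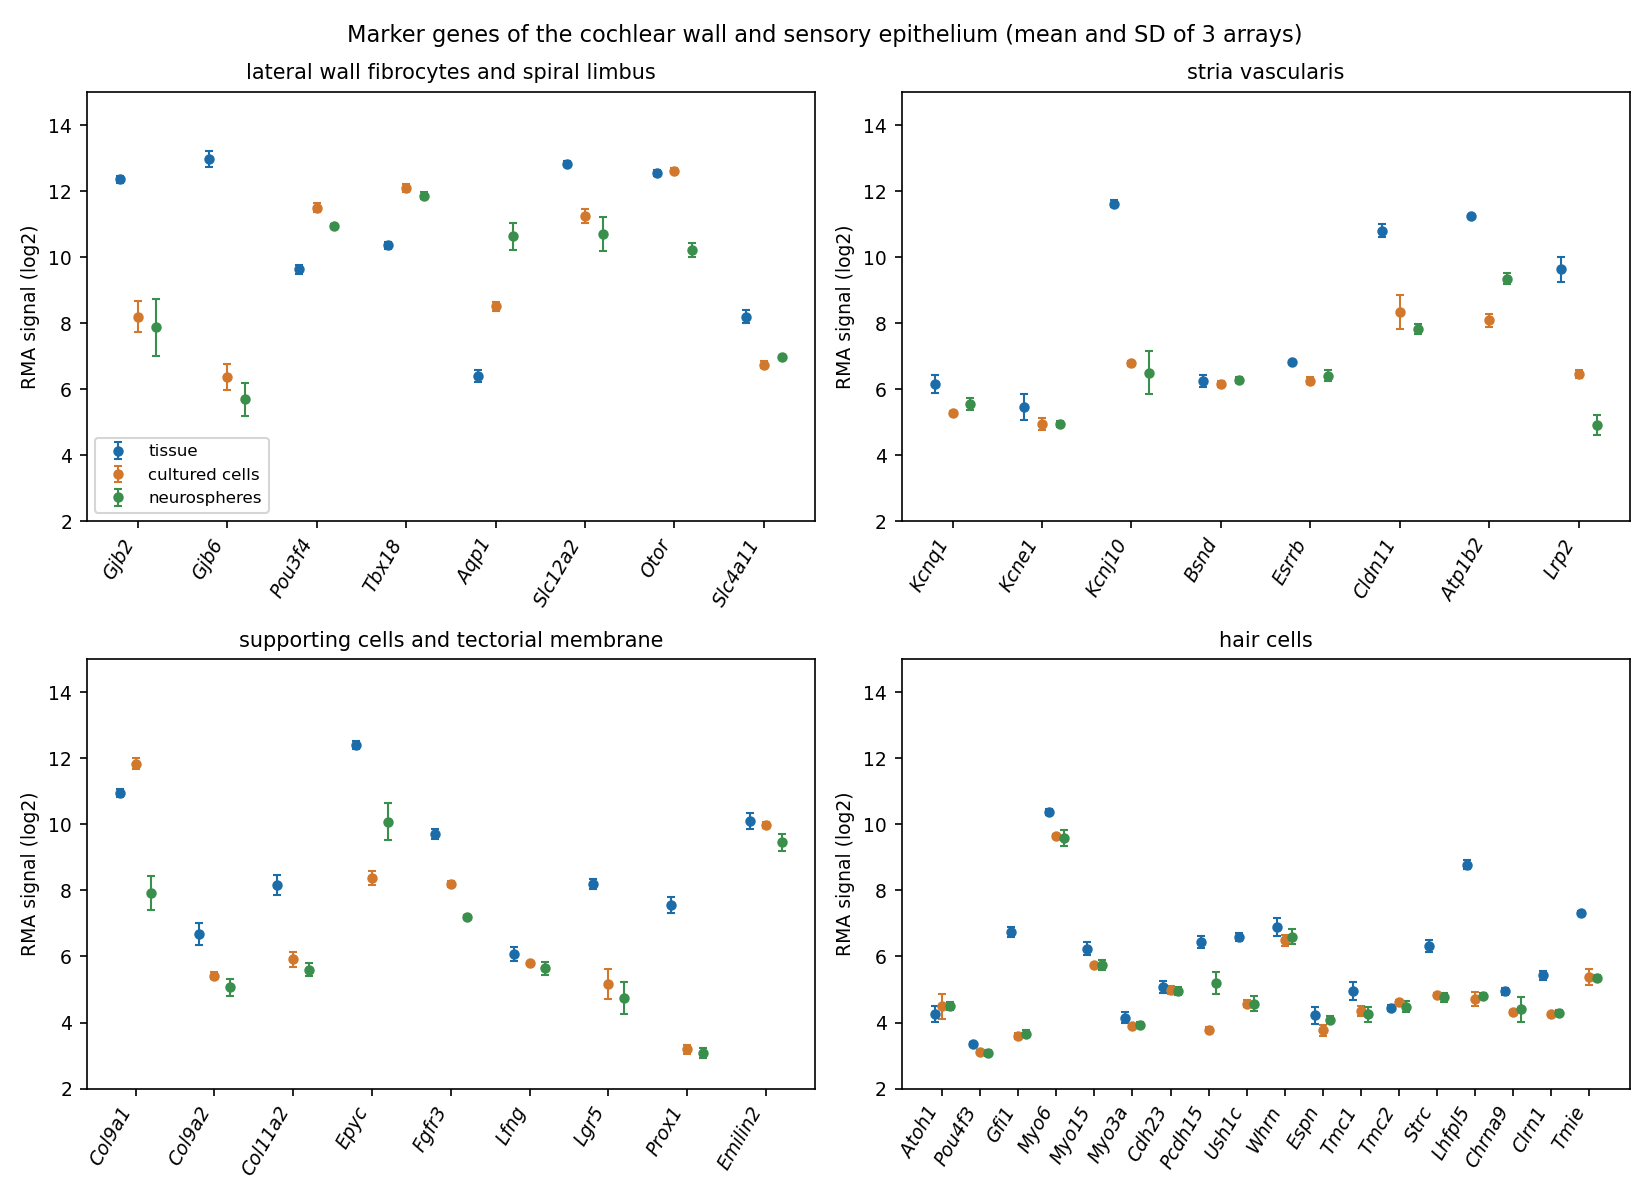
RMA signal (y axis, log2) of the 43 measured marker genes of 4 cochlear structures, with points for the mean and bars for the SD of the 3 arrays in each group. Gjb2 and Gjb6 were lower in both cultures while Pou3f4, Tbx18 and Aqp1 were higher, and Otor was at 12.56 in tissue, 12.61 in the cultured cells and 10.21 in neurospheres.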

How the data were processed

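RNA (100 ng per sample) was hybridised by the study to Affymetrix mouse expression arrays. The authors deposited a table of log2 values, and the labels name RMA and MAS5 in Expression Console as its source, with versions not given in the sources used here. Probe sets were named from the platform annotation, with symbols updated through RefSeq (GRCm38.p6). Of 45101 probe sets, 34945 named 1 gene, 932 several and 9160 none, and 64 were controls. The probe set with the highest mean stood for each gene.

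Each pair of groups was fitted by limma 3.58.1 (lmFit, eBayes; R 4.3.3) with its 6 arrays, in place of the Student's test in the study's methods, since a spread estimated from 3 arrays alone is uncertain. Calls required p under 0.05 (Benjamini-Hochberg, across 18193 genes) and more than 1.5-fold change. Precision is bounded by how few arrays there are. The script was tested on simulated data. Members and lists were chosen with earlier results of these data known.

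The 9 lists covered fibrocytes and limbus, stria vascularis, supporting cells and tectorial membrane, hair cells, spiral ganglion neurons, Schwann cells and myelin, bone and cartilage, melanocytes, and fibroblasts. Named genes were the members, the 3 genes nearest in course to each member spanning over 1 (log2), leaving out predicted genes, and per list up to 4 genes with the largest called change in cultured cells, plus those called against most of their list. Otor, Kcnq1, Kcne1, Bsnd, Esrrb, Atoh1, Pou4f3, Tmc1, Chrna9, Myo6, Mlana and Tyr were named after their values were seen. Alternatives changed the scaling, the choice of probe sets, a filter on low signal, the arrays fitted, the prior, the test, the fold threshold, a replicate block, and each array in turn.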

Additional observations from a re-analysis of the deposited data

How the results depend on the processing

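Of 543 results for single members under an alternative, 522 kept their direction and their side of the threshold. Of the others 14 changed sign, all of them differences between neurospheres and cultured cells that were called in neither setting. Only a change of scaling or a left-out array could change a sign. The other alternatives gave each member still tested the same log2 difference and could move only its call. Much of this tally was therefore fixed in advance. After centring on the more highly expressed genes Slc26a4 was at -0.0073 and Otog at -0.003, and after quantile normalization Slc26a4 was at -0.053, Otog at -0.046 and Tectb at -0.028. Leaving out single arrays gave -0.0278 to 0.0443 for Slc26a4, -0.0589 to 0.0905 for Otog, -0.0755 to 0.129 for Tectb and -0.0175 to 0.165 for Slc26a5. The remaining changes were Myo7a in cultured cells against tissue (-0.52 after quantile normalization, and not called at a fold change over 2), Tecta and Myo7a in neurospheres against cultured cells (not called at a fold change over 2), Slc26a5 against tissue in both cultures (called with no fold threshold), and Tecta in cultured cells against tissue (called without tissue array 1). With the lowest 40% of genes left out, 4 members and 20 of the other inner ear markers were still tested, so fewer could be called. Of these members 4 were lower in cultured cells and 4 in neurospheres than in tissue, and 1 was lower and 0 were higher in neurospheres than in cultured cells. Of the markers 12 were lower in cultured cells and 15 in neurospheres than in tissue. Of all 10916 genes tested under this filter, 2667 were lower in cultured cells and 2540 in neurospheres than in tissue. The filter used the mean over all 9 arrays, tissue included. A gene low in both cultures could therefore pass through its tissue signal alone, so the counts under this filter are no support for the differences. Another alternative left out probe sets whose names end in _a_at, _s_at or _x_at, among them those of Tectb, Myo7a and Otof. This left 7 members, of which 5 were lower in cultured cells and 5 in neurospheres than in tissue. Of these members, 1 was lower in neurospheres than in cultured cells. Of all 16591 genes then tested, 3553 were lower in cultured cells and 3358 in neurospheres than in tissue. With a fold change over 2, 1 member was lower and 0 were higher in neurospheres than in cultured cells. Leaving out single arrays gave 8 to 9 members lower in cultured cells than in tissue, and 24 to 27 of the other markers. Quantile normalization moved the median difference of all genes between cultured cells and tissue by 0.12. With no fold threshold 11641 genes were called between cultured cells and tissue in place of 7718, and 6367 between neurospheres and cultured cells in place of 3259. With a fold change over 2 these were 4901 and 1618, and 4961 in place of 7762 for neurospheres against tissue. Deviations of arrays with the same replicate number correlated across genes at 0.069 to 0.21 (cultured cells and tissue), -0.093 to -0.059 (neurospheres and tissue) and -0.19 to 0.04 (neurospheres and cultured cells). Arrays with different numbers correlated at -0.17 to 0.0845, -0.018 to 0.066 and -0.086 to 0.21 in the same order. The labels do not say if arrays with the same number share an origin, and these few correlations cannot settle it. With that number as a replicate block, 8 members were lower in cultured cells and 8 in neurospheres than in tissue, 2 were lower and 1 was higher in neurospheres than in cultured cells, and no call of a member changed.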

Other observations

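The bone of the otic capsule and pigment cells lie next to the structures described above. Of 7 measured genes of bone and cartilage, 4 were lower and 2 were higher in cultured cells than in tissue (median -0.75), against 22.0% and 20.4% of all genes. Col2a1, the collagen of cartilage, was at 9.23 ± 0.25 in tissue, 13.31 ± 0.13 in the cultured cells and 11.13 ± 0.52 in neurospheres (mean log2 ± SD, n = 3). Ibsp, bone sialoprotein, was higher by 1.58 in cultured cells than in tissue (limma adjusted p = 0.000614) and differed by -3.68 between neurospheres and cultured cells (adjusted p = 5.28e-05). Acan (aggrecan), Phex and the osteocyte gene Sost were lower in cultured cells than in tissue, at -3.42, -2.19 and -2.08. Of 6 melanocyte genes, 4 were lower in cultured cells than in tissue and 0 were higher (median -0.79), with Mitf at -2.45, Dct at -2.44, Tyrp1 at -0.87 and Pmel at -0.71. Mitf and Dct were higher in neurospheres than in cultured cells, by 1.93 (limma adjusted p = 7.33e-06) and 1.32 (adjusted p = 0.000362). Tyr, the enzyme that defines pigment cells, was at 4.07 ± 0.14 in tissue, within the nose receptor range. Tyrp1, at 4.65 ± 0.075 in tissue, and Mlana, at 4.28 ± 0.060, also lay within that range in every group. Among the fibroblast genes Postn, Col1a1 and Col3a1 were higher in cultured cells than in tissue, by 3.26, 3.06 and 2.37, and Dcn differed by -1.09.

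Of the genes of the nerve itself, 9 of 10 genes of spiral ganglion neurons and 6 of 7 measured genes of Schwann cells and myelin were lower in cultured cells than in tissue. Of all genes 22.0% were lower in this comparison. Snap25 differed by -9.05, Nefh by -8.93, Calb2 by -7.99 and Pvalb by -7.84 among the neuronal genes, and Mbp by -5.49, S100b by -5.15, Mag by -4.44 and Sox10 by -4.13 among the glial ones.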
